A study of Mus musculus with 8 samples.

Results

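The genes described here are 10 chaperones and other unfolded protein response genes of the endoplasmic reticulum (ER), measured in tumor-associated macrophages (TAMs) of mice given thiostrepton. They are Hspa5, Hsp90b1, Calr, Pdia4, Creld2, Sdf2l1, Dnajb9, Herpud1, Edem1 and Xbp1. They were chosen by name as known ER stress genes, with earlier results of these data known. They make up 10 of the 23413 gene symbols in the count table, and all 10 passed the filter on low counts in each comparison. RNA was sequenced from TAMs of 8 C57BL/6 male mice, 8 to 10 weeks old, that carried B16F10 melanoma cells under the skin of the flank. Thiostrepton, a thiopeptide antibiotic, was given by 2 routes and set against its vehicle, DMSO. The vehicle was given to 2 mice by a route the sources do not name, thiostrepton by intraperitoneal (I.P.) injection to 4 mice, and thiostrepton beside the tumor (S.C., called IS in the labels) at 20 mg/kg to 2 mice. The dose of the 4 I.P. mice is not stated for these libraries. Doses fell on days 6 and 12 from engraftment, and TAMs were sorted on day 18 as CD45+F4/80+CD11b+Gr-1- cells from each mouse separately, so that each library is 1 mouse. No group carries a genetic change, and the model is limited to transplanted cells of 1 melanoma line and to 2 mice in each of the DMSO and S.C. groups.

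The unfolded protein response begins at the ER membrane, where the sensors IRE1 (Ern1), PERK (Eif2ak3) and ATF6 respond to misfolded proteins in the lumen. IRE1 splices Xbp1 mRNA so that it encodes an active transcription factor, ATF6 is cut in the Golgi to release one, and PERK phosphorylates eIF2α, which slows translation while allowing that of ATF4. ATF6 and XBP1 drive genes of folding and of ER-associated degradation, and ATF4 drives Ddit3, Trib3 and Chac1, which other kinases that phosphorylate eIF2α also reach. Macrophages secrete many proteins and rely on this machinery. Gene-level counts do not separate spliced from unspliced Xbp1 mRNA.

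The promoters of 5 of the 10 genes carried a known ER stress element in the 250 bases before to 50 bases after the RefSeq start. Promoters of all 10 were found in RefSeq (GRCm38.p6). The ER stress element ERSE was searched on both strands as CCAAT and CCACG with 9 bases of any kind between them and was found in 4 of 10 promoters (40%), against 39 of 32851 mouse promoters (0.119%). ERSE-II, searched on both strands as ATTGG and CCACG with 1 base between them, was found in Herpud1 and in 12 of 32851 promoters (0.0365%). The XBP1-bound element UPRE, TGACGTGG, was in 0 of 10 and in 0.676% of all promoters. The core of the CARE element bound by ATF4 with its partners, TGATGCAA, was in Herpud1 and in 0.895% of all promoters. The genes were chosen as known ER stress genes, so that shares above those of all promoters describe the list and are no test of it. ERSE and ERSE-II share the CCACG part, and UPRE holds the same 5 bases read on the other strand. The members' promoters were richer in G and C, with a median of 66.2% against 52.7%. The stretches that hold these elements are shown for the 4 members with an ERSE and for Herpud1. The promoters of Pdia4, Sdf2l1, Dnajb9, Edem1 and Xbp1 held none of the 4 elements in this window. Each is written on the gene's strand with 20 bases on either side of its outermost elements and the elements in capitals, and an element on the opposite strand reads as its reverse complement (CGTGG before ATTGG for ERSE).
Hspa5, chr2:34772005-34772063, + strand, 85 to 27 bases before the start: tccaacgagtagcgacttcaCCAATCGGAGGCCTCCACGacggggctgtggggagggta
Hsp90b1, chr10:86705513-86705676, - strand, 232 to 69 bases before the start: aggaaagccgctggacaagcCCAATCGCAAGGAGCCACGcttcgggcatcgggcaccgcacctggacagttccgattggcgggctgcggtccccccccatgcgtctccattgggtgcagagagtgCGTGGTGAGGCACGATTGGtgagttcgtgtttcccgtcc
Calr, chr8:84847055-84847113, - strand, 182 to 124 bases before the start: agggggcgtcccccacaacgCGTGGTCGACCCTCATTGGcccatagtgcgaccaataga
Creld2, chr15:88819500-88819558, + strand, 146 to 88 bases before the start: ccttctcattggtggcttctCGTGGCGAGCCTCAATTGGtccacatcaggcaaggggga
Herpud1, chr8:94386297-94386407, + strand, 132 to 22 bases before the start: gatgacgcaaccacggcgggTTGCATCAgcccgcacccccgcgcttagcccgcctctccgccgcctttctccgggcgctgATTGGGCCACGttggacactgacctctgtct

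**Figure D1:**
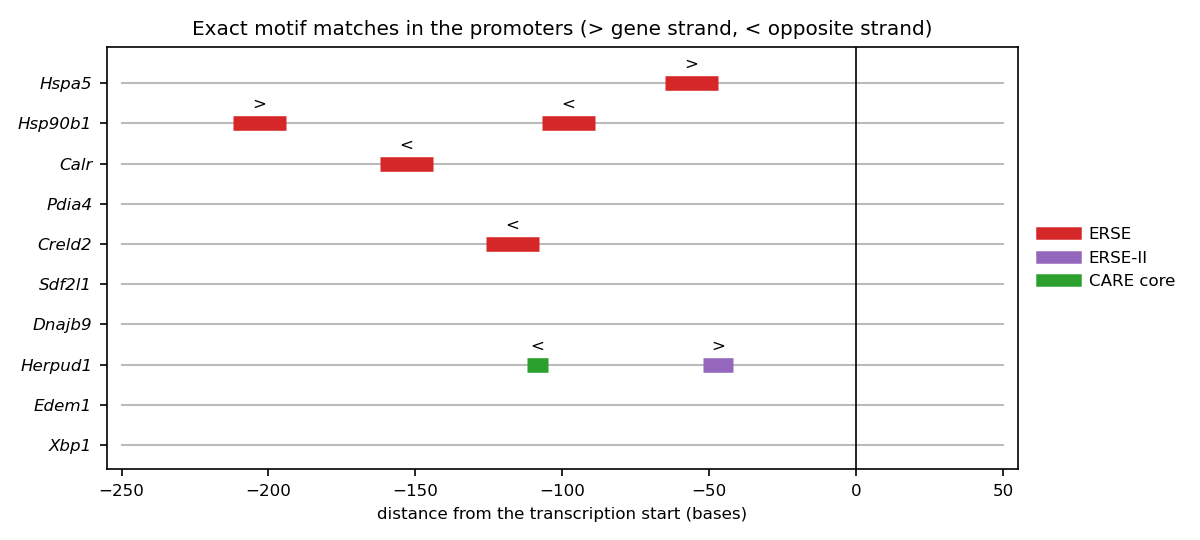
Positions of the elements found in the promoters, as distance in bases from the RefSeq start (x axis), with 1 line per gene (y axis), 1 colour per element and arrowheads for the strand. Hsp90b1 holds 2 ERSE copies, Hspa5, Calr and Creld2 hold 1 each, and Herpud1 holds ERSE-II and the CARE core.

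Levels are given as CPM, counts scaled to the library totals after TMM normalization over all 8 libraries, and the libraries held 14127506 to 17577466 counts, so that 3 counts equal 0.169 to 0.219 CPM. Members had 209 to 34859 counts per mouse, far above that floor. The table held all 13 macrophage markers in each library, summing to 13276 to 21568 CPM, and the sums of the other cell types' markers are given with the results they move with. Per kilobase of exon, Hspa5 stood highest in the DMSO mice at 467 ± 92.0 CPM per kb (SD, n = 2). Sdf2l1 followed at 280 ± 40.6, Hsp90b1 at 245 ± 17.3, Pdia4 at 218 ± 15.8 and Calr at 210 ± 58.2 CPM per kb. Lower came Xbp1 at 99.4 ± 19.1, Creld2 at 95.4 ± 20.8, Edem1 at 41.7 ± 9.94 and Herpud1 at 34.0 ± 9.84 CPM per kb. Dnajb9 was lowest at 5.77 ± 0.230 CPM per kb. Neighbours whose DMSO values did not overlap were Hspa5 and Sdf2l1, Hsp90b1 and Pdia4, Calr and Xbp1, Creld2 and Edem1, and Herpud1 and Dnajb9, and the other neighbours overlapped. Hspa5 was first and Dnajb9 last by mean level per kb in all 3 groups. These lengths count the exons of all transcripts. By the longest transcript, Hsp90b1 (306 CPM per kb) came before Sdf2l1 (280) and Calr (277) before Pdia4 (218) in the DMSO mice.

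**Figure D2:**
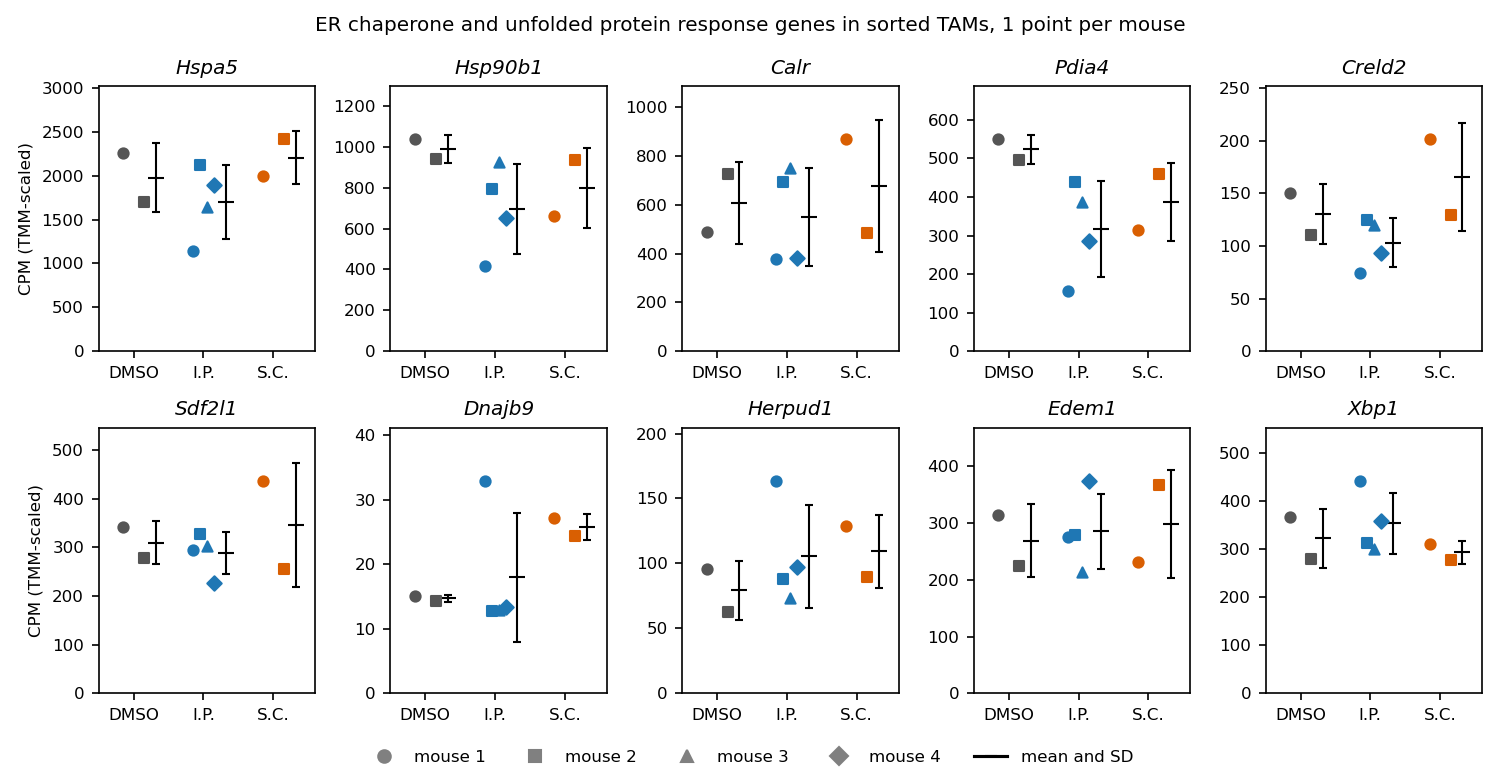
Level of each of the 10 genes in each mouse (y axis, TMM-scaled CPM from 0) by group (x axis), with 1 point per mouse and the group mean and SD beside the points. For Dnajb9 both S.C. mice and I.P. mouse 1 lie above the other mice, and for Pdia4 and Hsp90b1 both DMSO mice lie highest.

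No member met the study's criterion for a changed gene, an unadjusted P under 0.05 with at least a 2-fold difference, in the I.P. mice against the DMSO mice (0 of 10, against 2.0% of the 12174 genes tested). The same held for the S.C. mice against the DMSO mice (0 of 10, against 5.06% of 11680 genes) and for the S.C. against the I.P. mice (0 of 10, against 7.05% of 12206 genes). P values are from edgeR's two-sided quasi-likelihood test, and those adjusted by Benjamini and Hochberg over all genes tested were 0.980 to 0.988 for the members in the I.P. comparison. They were 1.0 for every member in the S.C. comparison and 0.599 to 0.989 between the routes. No gene of the whole table had an adjusted p under 0.05 in any comparison by this test, whereas 418 (3.43%), 632 (5.41%) and 1049 (8.59%) genes, none of them a member, had an unadjusted P under 0.05 for I.P., S.C. and the difference between routes. DESeq2 gave 26, 107 and 234 genes with an adjusted p under 0.05 and the likelihood ratio test 10, 179 and 265, none of them a member. An exact permutation test of 1 gene could not go below p = 0.133 with 4 mice against 2, or below 0.333 with 2 against 2. Intervals below are 95% intervals of the fitted log2 fold change, and they span a 2-fold difference in at least 1 direction for many members, so that the test leaves such differences possible. In bulk RNA, fewer cells of a type and less RNA per cell cannot be told apart.

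The large luminal chaperones Hspa5, Hsp90b1 and Calr did not meet the criterion by either route. Hspa5 (chr2:34771970-34777547, GENCODE vM21, GRCm38) encodes BiP, the HSP70 chaperone of the ER that also holds the sensors inactive. Its level was 2251 and 1701 CPM in DMSO mice 1 and 2, 1139, 2121, 1646 and 1898 CPM in I.P. mice 1 to 4, then 1994 and 2415 CPM in S.C. mice 1 and 2. I.P. mouse 1 was the lowest of all and S.C. mouse 2 the highest, and all groups overlapped. The log2 fold change was -0.22 for I.P. (SE 0.29, interval -0.89 to 0.45) and 0.13 for S.C. (SE 0.32, interval -0.65 to 0.92).

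Hsp90b1 (chr10:86690209-86705509) encodes GRP94, the HSP90 chaperone of the ER, which folds integrins and Toll-like receptors. It had 1037 and 938 CPM in the DMSO mice, 415, 794, 925 and 651 CPM in the I.P. mice, then 661 and 935 CPM by the S.C. route. All 6 treated mice were below both DMSO mice, although I.P. mouse 3 and S.C. mouse 2 missed the lower DMSO value only narrowly. The log2 fold change was -0.51 for I.P. (SE 0.32, interval -1.23 to 0.22) and -0.33 for S.C. (SE 0.32, interval -1.13 to 0.47). Calr (chr8:84841850-84846934) encodes calreticulin, a lectin chaperone of new glycoproteins. Its level was 487 and 724 CPM with DMSO, 376, 693, 750 and 381 CPM with I.P. thiostrepton, and 868 and 485 CPM with S.C. thiostrepton. The I.P. mice split into a low pair (1 and 4) and a high pair (2 and 3), so the groups overlapped and the spread within a group exceeded the difference between groups. Its log2 fold change was -0.14 for I.P. (SE 0.36, interval -0.96 to 0.68) and 0.13 for S.C. (SE 0.41, interval -0.88 to 1.14).

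Among the folding cofactors, Pdia4 had the lowest fold change of all members and Dnajb9 the highest by the S.C. route, but neither met the criterion. Pdia4 (chr6:47796141-47813430) encodes ERp72, a protein disulfide isomerase. Its level was 550 and 496 CPM in the DMSO mice, 157, 439, 386 and 285 CPM in the I.P. mice, then 315 and 458 CPM by the S.C. route. As for Hsp90b1, all 6 treated mice were below both DMSO mice, and I.P. mouse 1 was far lowest. The log2 fold change was -0.72 for I.P. (SE 0.37, interval -1.58 to 0.13, unadjusted P = 0.0860) and -0.46 for S.C. (SE 0.33, interval -1.27 to 0.35, unadjusted P = 0.212). Without I.P. mouse 1 it was -0.50.

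Creld2 (chr15:88819646-88826683) encodes a secreted and ER-resident protein with disulfide isomerase activity. Its level was 151 and 110 CPM with DMSO, 74.7, 125, 120 and 93.6 CPM in the I.P. mice, then 202 and 129 CPM by the S.C. route. Both S.C. mice were above all 4 I.P. mice, whereas each treated group overlapped the DMSO group. Its log2 fold change was -0.34 for I.P. (SE 0.28, interval -0.97 to 0.29) and 0.32 for S.C. (SE 0.37, interval -0.59 to 1.22). Sdf2l1 (chr16:17130138-17132383) encodes a partner of BiP and of ER J-domain proteins that keeps folding clients soluble. It had 342 and 278 CPM with DMSO, 295, 328, 302 and 228 CPM with I.P. thiostrepton, and 436 and 255 CPM with S.C. thiostrepton. The S.C. pair held both the highest mouse and nearly the lowest one, and the groups overlapped. Its log2 fold changes were -0.11 (SE 0.23, interval -0.64 to 0.42) and 0.13 (SE 0.37, interval -0.78 to 1.04) for I.P. and S.C.

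Dnajb9 (chr12:44205559-44210326) encodes ERdj4, a J-domain partner that brings BiP to IRE1 and to clients of degradation. Its level was 15.1 and 14.3 CPM in the DMSO mice, 32.9, 12.7, 12.9 and 13.4 CPM in the I.P. mice, then 27.2 and 24.4 CPM by the S.C. route. Both S.C. mice were above both DMSO mice, while 1 I.P. mouse was above and 3 were below them. The log2 fold change was 0.78 for S.C. (SE 0.41, interval -0.24 to 1.81, unadjusted P = 0.110) and 0.28 for I.P. (SE 0.43, interval -0.71 to 1.26). Without I.P. mouse 1 the value for I.P. was -0.18, so its sign rests on that mouse.

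Of the genes of ER-associated degradation, Herpud1 (chr8:94386438-94395377) encodes a membrane protein that assembles the HRD1 ubiquitin ligase complex. It had 95.5 and 63.0 CPM in the DMSO mice, 163, 88.1, 73.2 and 97.3 CPM in the I.P. mice, then 129 and 89.6 CPM by the S.C. route. I.P. mouse 1 was the highest and DMSO mouse 2 the lowest, with overlap between all groups. The log2 fold change was 0.40 for I.P. (SE 0.35, interval -0.39 to 1.2) and 0.44 for S.C. (SE 0.37, interval -0.49 to 1.37). Without I.P. mouse 1 the first was 0.12. Edem1 (chr6:108828641-108859356) encodes a mannosidase-like lectin that directs misfolded glycoproteins to degradation. Its level was 315 and 224 CPM with DMSO, 276, 280, 214 and 374 CPM with I.P. thiostrepton, and 232 and 367 CPM with S.C. thiostrepton. The highest 2 mice came from different treated groups, and every group overlapped the others. Its log2 fold changes were 0.082 (SE 0.28, interval -0.55 to 0.71) and 0.13 (SE 0.37, interval -0.80 to 1.05).

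Xbp1 (chr11:5520659-5525893), the transcription factor of the IRE1 branch, had 367 and 279 CPM in the DMSO mice. It had 442, 313, 301 and 359 CPM in the I.P. mice, then 311 and 277 CPM by the S.C. route. I.P. mouse 1 was again the highest, and the groups overlapped. The log2 fold change was 0.13 for I.P. (SE 0.24, interval -0.43 to 0.68) and -0.16 for S.C. (SE 0.31, interval -0.92 to 0.60).

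**Figure D3:**
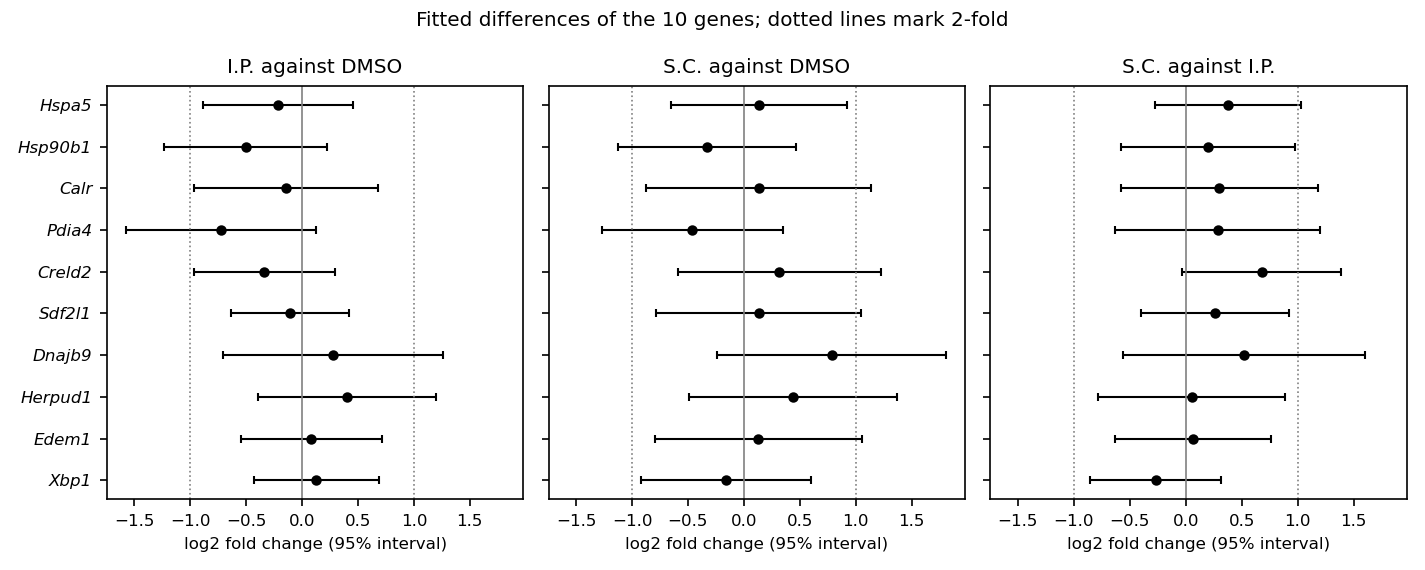
Fitted log2 fold changes of the 10 genes (x axis) in the 3 comparisons, with points at the estimate and bars for the 95% interval. Each interval includes 0, the lowest estimate is Pdia4 in the I.P. comparison (-0.72) and the highest is Dnajb9 in the S.C. comparison (0.78).

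Over the list of 10, the direction of the fold changes was mixed against DMSO. In the I.P. comparison 4 members had a positive and 6 a negative log2 fold change, with a median of -0.13 against 0.018 over all genes tested. In the S.C. comparison 7 were positive and 3 negative, with a median of 0.13 against 0.018. Mice of the 2 groups did not overlap for 2 of 10 members in the I.P. comparison, both lower (Hsp90b1 and Pdia4), where 6.83% of all genes were lower and 7.32% higher without overlap. In the S.C. comparison the same genes were lower without overlap (17.2% of all genes) and 1 member, Dnajb9, was higher (17.1% of all genes). Both comparisons share the DMSO mice, so that their fold changes are not independent.

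Between the routes, 9 of 10 members had a positive S.C. against I.P. log2 fold change, with a median of 0.28 against 0.023 over all genes. Positive values were found for 6326 of the 12206 genes tested. Creld2 was the only member whose mice did not overlap, with both S.C. mice above the 4 I.P. mice, as were 8.05% of all genes, and no member lay below all of them, as did 10.5%. Its log2 fold change was 0.68 (SE 0.31, interval -0.029 to 1.39, unadjusted P = 0.0580, adjusted p = 0.599 by edgeR). Dnajb9 followed at 0.52 (interval -0.56 to 1.61), or 0.99 without I.P. mouse 1 (unadjusted P = 0.0167, under the 2-fold limit), and Hspa5 at 0.37 (interval -0.28 to 1.03). Xbp1 was the 1 member with a negative value, -0.27 (interval -0.85 to 0.32). The remaining 6 lay between 0.054 (Herpud1, interval -0.78 to 0.89) and 0.30 (Calr, interval -0.58 to 1.18).

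Single mice often stood at the ends of the members' ranges. I.P. mouse 1 was the lowest of the 8 for 5 members (Hspa5, Hsp90b1, Calr, Pdia4 and Creld2) and the highest for 3 (Dnajb9, Herpud1 and Xbp1). Over the 9328 genes that averaged 5 CPM or more, it was the lowest mouse for 21.6% and the highest for 20.3%. The summed level of the 10 members was 3370 CPM in that mouse and 4380 to 5609 CPM in the other 7. The 5 genes lowest in I.P. mouse 1 were the 4 with an ERSE in the promoter and Pdia4, which had none of the elements searched. The 3 genes highest there were Herpud1, with ERSE-II and the CARE core, and Dnajb9 and Xbp1, with none of the elements. Of the wider list of ER genes described below, Canx, Derl3, Dnajc3, Pdia6 and Syvn1 also held an ERSE. Canx was lowest in I.P. mouse 1 (217 CPM), whereas Syvn1 in all 4 I.P. mice was above both DMSO mice. The pattern by element is a description of 1 mouse, and the part of the elements in it was not tested. Its summed melanoma markers (525 CPM) lay within the range of the other mice, and its summed macrophage markers (21568 CPM) were the highest of the 8. That sum was carried by C1qb, C1qc, Cd68 and C1qa. By contrast, the same mouse was the lowest of the 8 for 2 genes of the sort gate. These were Emr1 (F4/80, 318 CPM against 361 to 1020) and Ptprc (CD45, 153 CPM against 230 to 522). Itgam (CD11b), also of the gate, was at 178 CPM there, within the 103 to 384 CPM of the other mice. The part of these differences in the members' levels was not tested. S.C. mouse 1 was the highest of the 8 for Calr, Creld2 and Sdf2l1, and for 19.9% of the 9328 genes that averaged 5 CPM or more. Its 7 melanoma markers summed to 2987 CPM, against 462 to 1672 CPM in the other 7 mice, and their part in these levels was not tested. Without S.C. mouse 1 the S.C. against DMSO log2 fold changes of Calr, Creld2 and Sdf2l1 were -0.35, -0.039 and -0.30. All were of the opposite sign to those with that mouse.

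**Figure D4:**
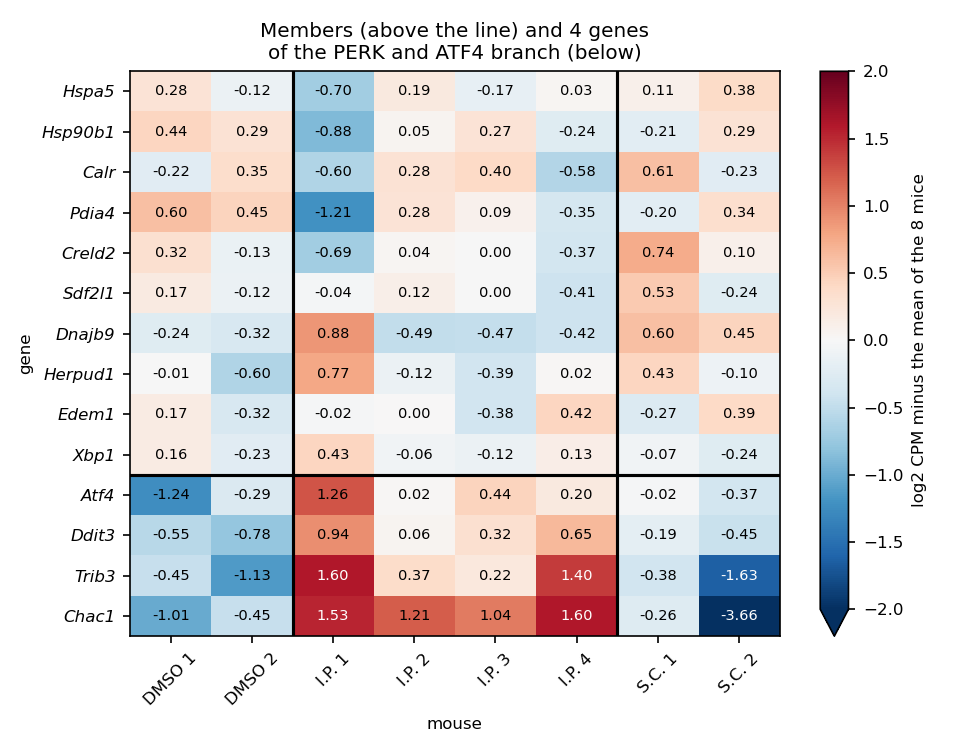
Log2 CPM of the 10 members and, under the line, of 4 genes of the ATF4 branch in each mouse (columns), centred on each gene's mean over the 8 mice (rows), with colours clipped at 2 on either side and the value printed in each cell. In I.P. mouse 1 Hspa5 to Creld2 are low while Dnajb9, Herpud1, Xbp1 and the genes of the ATF4 branch are high, and Chac1 in S.C. mouse 2 (-3.66) is beyond the colour range.

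The S.C. libraries also differed from the rest in other cell types' markers and in dropout. The 10 B and plasma cell markers, which matter here because plasma cells are rich in ER chaperones, summed to 83.5 and 191 CPM in the S.C. mice and 29.3 to 75.7 CPM in the others. The plasma cell markers Mzb1 and Tnfrsf17 had no count in either S.C. mouse. The 8 neutrophil markers summed to 201 and 321 CPM against 26.1 to 112. In S.C. mouse 1 Cxcr2 alone held 171 CPM and every other neutrophil marker at most 15.7 CPM. In S.C. mouse 2 Cxcr2, S100a8, Ngp and S100a9 held 65.3, 64.8, 60.3 and 60.2 CPM. T and NK cell markers summed to 38.7 and 25.7 CPM against 1.16 to 15.7. Dendritic cell markers reached at most 30.6 CPM and fibroblast and endothelial markers 8.96 CPM in any mouse. Genes averaging 5 CPM or more but without a count made up 0.525% and 0.364% in the S.C. libraries, against 0.0107% to 0.129% in the others. The part of these differences in the members' levels was not tested.

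Beyond the 10 members, a wider list of 108 genes of ER folding, degradation and transport was followed, of which 107 were tested for I.P. and 106 for S.C. This list was also chosen with earlier results of these data known. By the I.P. route 4 of the 107 met the criterion, all higher (against 1.53% of all genes higher) and all in the ATF4 branch. The median log2 fold change of the list was -0.062, with 44 genes positive and 63 negative. By the S.C. route 0 of 106 met it higher and 1 lower (against 2.29% and 2.77% of all genes), with a median of -0.078.

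The 4 genes that rose with I.P. thiostrepton were Chac1, Trib3, Atf4 and Ddit3, each higher in 4 of 4 I.P. mice than in both DMSO mice. Their adjusted p was 0.980 by edgeR, so none would be called after correction over all genes. Chac1 encodes an enzyme that degrades glutathione and had 2.04 and 3.04 CPM with DMSO, 12.4, 9.92, 8.81 and 13.1 CPM with I.P. thiostrepton, and 3.50 and 0.219 CPM (52 and 3 counts) with S.C. thiostrepton. The I.P. mice were clear of all others, with a log2 fold change of 2.11 (SE 0.39, unadjusted P = 4.93e-04). Trib3, a pseudokinase that restrains ATF4 signalling, had 20.6 and 12.9 CPM with DMSO, 85.6, 36.6, 32.9 and 74.8 CPM in the I.P. mice, then 21.7 and 9.03 CPM by the S.C. route. Its I.P. log2 fold change was 1.77 (SE 0.47, unadjusted P = 0.00484), with the S.C. mice overlapping the DMSO mice. Without DMSO mouse 2 it was 1.48 and the unadjusted P was 0.0508, past the threshold. The Chac1 promoter carried the CARE core that Herpud1 also has. It was the only 1 of 96 wider-list promoters, from 82 genes, with this core (1.04%, against 0.895% of all promoters). The Trib3 promoter held none, and the part of the core in the I.P. levels was not tested. The Chac1 core is shown here in capitals as its reverse complement with the bases around it.
Chac1, chr2:119351029-119351076, + strand, 213 to 166 bases before the start: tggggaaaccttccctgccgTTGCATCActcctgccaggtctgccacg

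Atf4, the transcription factor itself, had 72.7 and 141 CPM in the DMSO mice, 412, 175, 233 and 198 CPM in the I.P. mice, then 170 and 133 CPM by the S.C. route. The I.P. mice were above both DMSO mice, with mouse 1 far highest, and the log2 fold change was 1.24 (SE 0.42, unadjusted P = 0.0167). It no longer met the criterion without I.P. mouse 1, at 0.92, or without DMSO mouse 1, at 0.85 with an unadjusted P of 0.138. Ddit3, which encodes the stress factor CHOP, had 42.6 and 36.4 CPM with DMSO, 120, 65.4, 78.3 and 98.6 CPM with I.P. thiostrepton, and 54.9 and 45.7 CPM with S.C. thiostrepton. The S.C. mice lay between the other groups, and the I.P. log2 fold change was 1.19 (SE 0.29, unadjusted P = 0.00318). The S.C. log2 fold change was 0.48 for Atf4 (interval -0.55 to 1.51) and 0.32 for Ddit3 (interval -0.52 to 1.17). The sensors upstream did not meet the criterion against DMSO. For I.P., Ern1 was at 0.36 (interval -0.64 to 1.36), Eif2ak3 at 0.20 (interval -0.50 to 0.90) and Atf6 at 0.44 (interval -0.29 to 1.16). For S.C. they were at 0.24 (interval -1.51 to 1.99), -0.21 (interval -1.78 to 1.37) and -0.65 (interval -1.69 to 0.38).

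**Figure D5:**
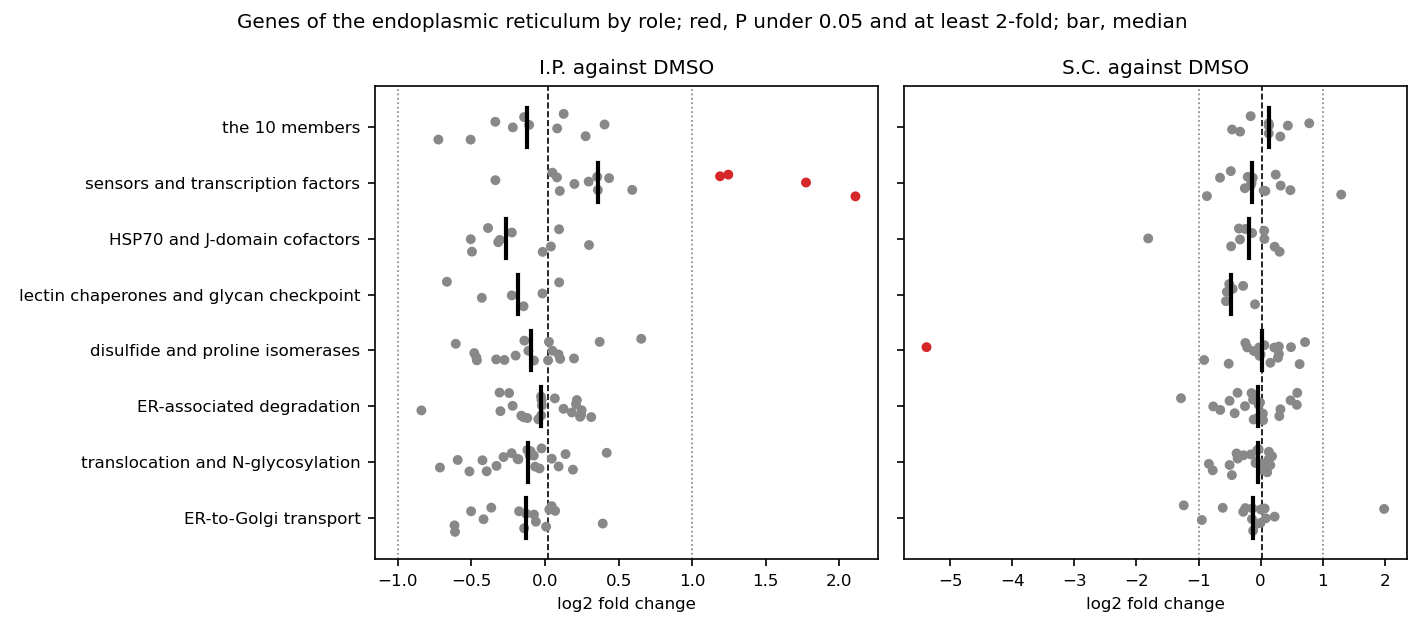
Log2 fold changes (x axis, scaled separately in each panel) of the 10 members and of the wider list by role (y axis) for I.P. and S.C. against DMSO, with 1 point per gene, a thick bar at each median, a dashed line at the median of all genes, dotted lines at 2-fold and the genes that met the criterion in red. For I.P., 13 of 14 genes in the role labelled sensors and transcription factors are positive, with a median of 0.36. That role also holds regulators and targets such as Trib3 and Chac1. The other 6 roles have medians between -0.27 and -0.025.

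By role, 13 of the 14 genes grouped as sensors and transcription factors had a positive I.P. log2 fold change, with a median of 0.36. Of all genes tested, 6306 of 12174 were positive. That role also holds regulators and targets that are neither, namely Mbtps1, Mbtps2, Ppp1r15a, Ppp1r15b, Trib3 and Chac1. Its largest values were those of Chac1 (2.11) and Trib3 (1.77). The 10 HSP70 and J-domain cofactors had a median of -0.27, the 6 lectin chaperones -0.19, the 18 disulfide and proline isomerases -0.094, the 22 degradation genes tested -0.025, the 22 translocation and glycosylation genes -0.11 and the 15 transport genes -0.13. The gene with the smallest P in each of these 6 roles was lower with I.P. thiostrepton without meeting the criterion. They were Dnajc10, an ER disulfide reductase, at -0.50 (interval -1.2 to 0.19), Ganab, the glucosidase II subunit, at -0.67 (interval -1.42 to 0.086), and Pdia5, a disulfide isomerase, at -0.48 (interval -1.10 to 0.14). The others were Derl2, of the retrotranslocation channel, at -0.31 (interval -0.82 to 0.20), Ssr1, of the translocon-associated complex, at -0.51 (interval -1.15 to 0.13), and Lman1, a cargo receptor, at -0.61 (interval -1.26 to 0.037). Without I.P. mouse 1 the values were -0.32, -0.46, -0.43, -0.27, -0.35 and -0.46, in the same order. Without DMSO mouse 1, Derl2 was at -0.11 and Lman1 at -0.30.

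For S.C. against DMSO the role medians were -0.14 for sensors and transcription factors, -0.19 for HSP70 and J-domain cofactors, -0.48 for lectin chaperones, 0.030 for isomerases, -0.043 for degradation, -0.044 for translocation and -0.12 for transport. All 6 lectin chaperone genes had a negative value, as did 5658 of the 11680 genes tested, and none met the criterion. Canx, which encodes the membrane lectin chaperone calnexin, was at -0.54 (interval -1.24 to 0.15), with both S.C. mice (326 and 336 CPM) below both DMSO mice (461 and 488 CPM). Fkbp14, an ER proline isomerase, was the 1 gene of the list that met the criterion. Its counts were 24 and 34 with DMSO against 0 and 1 with S.C. thiostrepton, and the pooled, depth-scaled counts were 51.6 times higher with DMSO (interval 8.90 to 2072, for counting error only). Leaving out either DMSO mouse ended that call (unadjusted P of 0.214 without mouse 1 and 0.262 without mouse 2), while the fitted log2 fold change, -5.38 with all mice, was -5.51 and -5.23. Ssr3, of the translocon-associated complex, had an unadjusted P of 0.0440 at -0.77, under the 2-fold limit. Ppp1r15a, the phosphatase subunit that reverses eIF2α phosphorylation, was at 1.3 (interval -0.043 to 2.64, unadjusted P = 0.0556), with both S.C. mice (416 and 538 CPM) above both DMSO mice (283 and 99.0 CPM). Its unadjusted P was under 0.05 without either S.C. mouse (0.00944 and 0.0456) and without DMSO mouse 1 (0.00319, at 2.23), but 0.222 without DMSO mouse 2, at 0.72. Hyou1, an HSP70-like chaperone, was at -1.81 (interval -4.74 to 1.12) and had 10 and 145 counts with S.C. thiostrepton. Erlec1, a degradation lectin, was at -1.28 (interval -3.09 to 0.52) and Kdelr2, a retrieval receptor of ER proteins, at -1.24 (interval -2.73 to 0.25). Without S.C. mouse 1 both met the criterion, at -1.64 and -1.63, and Kdelr2 also did so without DMSO mouse 1, at -1.83. Without DMSO mouse 2, Kdelr2 was at -0.25 (unadjusted P = 0.763). Without S.C. mouse 2, Hyou1 and Atf6 met it, at -4.90 and -1.21, and without S.C. mouse 1 neither did, at -0.91 and -0.28. A fit with a single S.C. mouse assumes that it varies like the DMSO mice, and 2989 or 3432 genes of the table then met the criterion, against 591 with both mice.

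Between the routes, 1 gene of the wider list was higher and 5 were lower in the S.C. mice by the criterion (against 2.41% and 4.64% of all genes), and the list's median was 0.047. Lower were Trib3 at -1.90 (SE 0.56, unadjusted P = 0.00914), Chac1 at -2.56 (SE 0.95, unadjusted P = 0.0261), Atf6 at -1.07 (SE 0.41, unadjusted P = 0.0292), Erlec1 at -1.33 (SE 0.56, unadjusted P = 0.0430) and Fkbp14. Their adjusted p was 0.394 to 0.567 by edgeR. Each of these calls was lost without at least 1 mouse. Trib3 lost it without S.C. mouse 2 (-1.40, unadjusted P = 0.0602), which held 9.03 CPM, and was at -2.67 without S.C. mouse 1. Chac1 lost it without I.P. mouse 1 or 4 (unadjusted P = 0.0515 and 0.0562, at -2.50 and -2.47) and ranged from -5.61 without S.C. mouse 1 to -1.66 without S.C. mouse 2. Atf6 lost it without I.P. mouse 4 (-0.81), its highest mouse at 126 CPM, or without S.C. mouse 1 (-0.69), its lowest at 27.9 CPM. Erlec1 lost it without any 1 of the 4 I.P. mice (unadjusted P = 0.0666 to 0.0917), with log2 fold changes that stayed between -1.44 and -1.25, and without S.C. mouse 2 (0.0871, at -1.05). Fkbp14 had 1, 20, 17 and 78 counts in the I.P. mice against 0 and 1, a pooled ratio of 49.5 (interval 8.71 to 1972, for counting error only), and lost its call without I.P. mouse 4 (unadjusted P = 0.0743), S.C. mouse 1 (0.117) or S.C. mouse 2 (0.0532). The gene called higher was Kdelr3, another retrieval receptor, which was named after its values were seen. Its counts were 144 and 20 by the S.C. route and 8 to 22 by the I.P. route, with a log2 fold change of 2.63 (SE 0.91, unadjusted P = 0.0191) that was 0.70 without S.C. mouse 1 and 3.42 without S.C. mouse 2.

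Among the genes whose levels most resembled the members' mean pattern over the 8 mice were Ttl (Pearson r = 0.97), Lmf1 (0.96), Slbp (0.95), Med28 (0.95), Psmf1 (0.94), Vti1b (0.94) and Rpl7l1 (0.94). They were ranked by the correlation of log2 CPM with the mean of the members' centred log2 CPM, among the 9215 genes outside both lists that averaged 5 CPM or more, of which 29 reached 0.9. The points share the same 8 libraries and their scaling, and the values describe likeness over these mice only. The members did not share 1 pattern, since their pairs ran from r = -0.83 (Hsp90b1 and Herpud1) to 0.97 (Hsp90b1 and Pdia4). Likeness to their mean is thus not likeness to each member. Ttl, which encodes tubulin tyrosine ligase, had 12.6 and 9.59 CPM with DMSO, 7.20, 11.1, 9.09 and 8.40 CPM with I.P. thiostrepton, and 17.2 and 12.4 CPM with S.C. thiostrepton. Like Hspa5, Hsp90b1, Calr, Pdia4 and Creld2, it was lowest in I.P. mouse 1, where Dnajb9, Herpud1 and Xbp1 were highest.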

How the data were processed

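TAM libraries of 8 mice were analysed, 1 per mouse, grouped by the treatment in their labels. The authors deposited raw read counts per gene as whole numbers without normalization. The labels name TopHat2 and edgeR and the study's methods name bowtie2 2.2.3 and RSEM 1.2.15, both with mm10, so the counter is uncertain and genes with near-identical copies may be split differently. The table was used as deposited.

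The analysis used edgeR 4.0.16 under R 4.3.3. The filter was filterByExpr, with a count of at least 10 and a total of at least 15, and TMM set the scaling. Each pair of groups was fitted alone by the two-sided quasi-likelihood test, with p-values adjusted over all genes tested. The study's criterion (unadjusted P under 0.05 and at least 2-fold) defined calls. The standard error is the log2 fold change divided by the square root of F. Log2 CPM used a prior count of 2. Intervals and floors for counts cover counting error only. The procedure was tested on simulated data.

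The members and gene lists were chosen with earlier results of these data known. Named genes are the members, the sensors, Atf4 and Ddit3, in each role of the wider list the smallest P by each route and every gene that met the criterion by either route, the defining markers that move with a result, and the 8 genes most like the members, of which 1 is not reported here. Of the wider list, Fam8a1 was not matched and Derl3 did not pass the filter with the S.C. mice. Gene positions and exon lengths are from GENCODE vM21 (GRCm38, the same assembly as mm10) and promoters from RefSeq GRCm38.p6.

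Other settings tried were RLE size factors, library size only, no filter, a filter at 1 CPM in 2 libraries, DESeq2 1.42.0, the likelihood ratio test, 1 fit of all groups, a replicate block, and leaving out each mouse. A crossed block, I.P. mice 1 and 2 alone, and all alternatives for the wider list's single genes were chosen after the data were seen.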

Additional observations from a re-analysis of the deposited data

Results flagged for a closer look

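Among the 4 I.P. mice, 31 named genes were checked for a mouse far from the other 3, by Dixon's critical value for 4 samples at 95%, and 2 genes had one. Chance alone gives about 1 in 20 such groups. Dnajb9 stood at 32.9 CPM in I.P. mouse 1, and the gap to the next mouse was 0.968 of the range of the group. Ganab stood at 38.0 CPM in the same mouse, the lowest of its group, with a gap of 0.914 of the range.

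The S.C. and I.P. mice, both given thiostrepton, differed directly by the criterion in 6 of the 106 genes of the wider list tested and in none of the 10 members, against 7.05% of all genes tested, so the share in the list was not above that of all genes. The S.C. against I.P. log2 fold changes were -1.07 for Atf6, -1.90 for Trib3, -2.56 for Chac1, -5.30 for Fkbp14, -1.33 for Erlec1 and 2.63 for Kdelr3, by edgeR's quasi-likelihood test. The value for Fkbp14 rests on 1 count in the S.C. mice and depends on the prior count. The adjusted p was above 0.05 for each of them.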

How the results depend on the processing

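No member met the criterion under any alternative run, and the signs of 5, 4 and 4 of the 10 members held under all of them for I.P., S.C. and the difference between routes. There was no sign that the numbers 1 and 2 pair the mice, though 1 difference per group cannot settle it. The log2 CPM differences between mice 1 and 2 of each group correlated at -0.06 (DMSO and I.P.), -0.13 (DMSO and S.C.) and 0.05 (I.P. and S.C.). With a replicate block on those numbers, I.P. against DMSO gave 0.00381 for Sdf2l1 and -0.061 for Ern1, the crossed replicate block gave 0.00382 and -0.060 with 2 wider-list genes called lower, and I.P. mice 1 and 2 alone gave -0.055 for Ern1. The replicate block gave -0.18 for Herpud1 in S.C. against I.P., with 0 wider-list genes higher and 2 lower.

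With library size only, the median of all genes for S.C. against DMSO moved from 0.018 to -0.13 (log2), and Hspa5, Calr, Sdf2l1 and Edem1 turned to -0.019, -0.021, -0.016 and -0.025, with -0.23 for the median of the wider list. Between the routes the same setting gave -0.034 for Herpud1, -0.047 for Edem1, 0.16 for the median of the members and -0.064 for the wider list.

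For S.C. against DMSO, the wider list had 1 gene higher and 3 lower with no gene filter, 1 higher and 2 lower by DESeq2, 1 higher by the likelihood ratio test, 2 lower with all 3 groups in 1 fit, 1 higher with the replicate block, and 1 higher and 2 lower with the crossed block. Of all genes, either way, 808 of 15704, 648 of 11680, 720 of 11680, 872 of 12378, 429 of 11680 and 475 of 11680 then met the criterion, in the same order. The cause of these moves was not tested.

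Without 1 mouse at a time, the log2 fold changes that turned sign had these ranges. For I.P. against DMSO they were -0.25 to 0.049 for Sdf2l1, -0.080 to 0.56 for Eif2ak3, -0.40 to 0.17 for Calr, -0.14 to 0.35 for Edem1, -0.053 to 0.34 for Xbp1 and -0.18 to 0.42 for Dnajb9, and the median of the members ran from -0.22 to 0.023. For S.C. against DMSO they were -0.35 to 0.46 for Calr, -0.35 to 0.038 for Xbp1, -0.063 to 0.34 for Hspa5, -0.30 to 0.43 for Sdf2l1, -0.28 to 0.42 for Edem1, -0.98 to 0.27 for Eif2ak3, -0.039 to 0.57 for Creld2 and -0.091 to 0.48 for Ern1. The median of the members then ran from -0.072 to 0.31, that of the wider list from -0.17 to -0.043, and the wider list had 0 to 2 genes higher and 0 to 14 lower. For S.C. against I.P. they were -0.24 to 0.34 for Herpud1, -0.31 to 0.36 for Edem1, -0.18 to 0.65 for Calr, -0.18 to 0.59 for Sdf2l1, -0.080 to 0.42 for Hsp90b1 and -0.014 to 0.53 for Pdia4. The median of the members ran from 0.19 to 0.36, that of the wider list from -0.057 to 0.051, with 1 to 2 genes higher and 1 to 13 lower. In the fits with 1 S.C. mouse, 2989 of 12210 and 3432 of 12349 of all genes met the criterion against DMSO, and 2003 of 12847 and 2115 of 12907 against I.P. Where 1 mouse of a group was left, it was assumed to vary like the other group. The number of mice, 2 in the DMSO and S.C. groups, limits what could be called, and for Dnajb9, with as few as 209 counts in a mouse, counting error adds to the spread.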
